A study of Bos taurus with 30 samples.

Results

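Skin of tick-resistant cattle at 48 h after tick infestation was compared with skin of tick-resistant cattle at 24 h. The comparison holds 11 of the 30 arrays of the series, chosen by their titles: 5 resistant arrays at 48 h (animals 01, 02, 03, 05 and 06) and 6 at 24 h (animals 01 to 06), so that 5 animals are present at both times. The animals came from an F2 population of Gyr (Bos indicus) crossed with Holstein (Bos taurus), and the biopsies came from the places where ticks fed, and labelled RNA was hybridised to Affymetrix bovine arrays, whose probe sets of short oligonucleotides report on transcripts. Of 24016 probe sets that are not controls, 13809 were kept as measured, and they stand for 7016 named genes. The 0 h resistant arrays taken before infestation (5), and the arrays of susceptible animals of the same cross, which number 3 before infestation and then 6 and 5 at the later times, entered the unpaired fit and are used below to place the values. Each biopsy is a mixture of cells, and resistant and susceptible are the phenotypes that the labels give.

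Ticks feed for days on one spot, and the host meets them with a wound response of the epidermis, with complement and clotting, and with leukocytes that gather at the mouthparts. Macrophages clear debris and pathogens, make much of the C1q that starts the classical complement pathway, and present antigen on class II molecules. Mast cells, basophils and eosinophils are the leukocytes best known from skin that rejects ticks. In bulk skin a higher signal of a cell type's genes can come from more of those cells or from more RNA per cell, and these cannot be told apart.

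The biopsies read as skin. KRT14, a keratin of basal keratinocytes, lay between 10.52 and 14.34 on the log2 scale at 48 h and between 13.94 and 14.51 at 24 h, and array medians lay between 7.17 and 7.40 over all 30 arrays. The 48 h array of animal 01 stood apart. It lay at 65.6 on the first principal component of all arrays, where the resistant 24 h arrays lay between -32.9 and 18.2. The 48 h array of animal 02 was at 27.4, and the highest susceptible array was at 38.3. The 48 h array of animal 01 also held the KRT14 value of 10.52, with the other resistant 48 h arrays at 13.16 or above. Many list results are therefore also given without animal 01, whereas single genes are given with it unless stated. The 3' minus 5' signal of the GAPDH control probe sets, a measure of RNA integrity, was 0.33 to 1.002 at 48 h (median 0.57) and 0.34 to 1.25 at 24 h (median 0.70). That of the actin control probe sets was larger. It was 1.16 to 4.86 at 48 h (median 4.40) and 1.48 to 5.76 at 24 h (median 3.73).

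The main test, limma on 30 arrays with 6 group means, called 0 of 13809 probe sets (0%) after Benjamini-Hochberg adjustment, and the smallest adjusted p was 0.153. It holds no animal term and treats the arrays as independent, although 5 animals are present at both times. Before adjustment, 1332 lay under 0.05 (658 higher and 674 lower at 48 h). When each animal was set against itself on the 10 arrays of the 5 animals, limma called 168 probe sets. Of these, 144 were higher at 48 h (1.04% of those tested) and 24 were lower (0.174%). The 126 called probe sets with 1 gene symbol stood for 121 genes, 106 higher and 15 lower. With each gene read by its brightest kept probe set alone, 99 of 7016 genes were called higher and 12 lower. A difference of at least 1 log2 unit, which is a doubling, was reached by 59 of the called probe sets that were higher, and 4 of those that were lower reached -1. Below, "rose" and "fell" are used of genes called in this paired fit, and none of them was called in the unpaired fit on 30 arrays.

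The paired calls rest on few animals. Without animal 01 the fit made 99 calls, of which 87 were among the 168. Without animal 02, 03, 05 or 06 it made 10, 212, 14 or 6, of which 9, 122, 12 and 5 were among them. All 168 probe sets kept their direction in each of these fits. They were chosen on the differences of these same 5 animals, so this adds no independent support. With the animal as a fixed term over all 30 arrays, as a random block over all 30, or as a fixed term over the 24 h and 48 h arrays of both phenotypes, limma called 0. The 30-array blocks also use the animal numbers of the 0 h arrays, which are in doubt for 2 resistant animals. XIST, an RNA of female cells, read 1.996 at 0 h, 11.63 at 24 h and 11.48 at 48 h under number 03, and 11.82, 4.83 and 4.74 under number 05. In animals 01, 02, 03 and 06 it lay between 11.48 and 12.28 at both 48 h and 24 h. The separation of single arrays was also limited: in 68 probe sets (0.492%) every 48 h array was above every 24 h array, and in 56 (0.406%) every 48 h array was below. Among the 168 called probe sets these were 14 and 2.

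Genes of monocytes and macrophages rose. All 16 measured genes of the list were higher at 48 h, 13 of them in each of the 5 animals, and 11 rose in the paired fit (CD68, AIF1, CD14, C1QA, C1QB, C1QC, MPEG1, MSR1, FCGR1A, TYROBP and LAPTM5). Over all 7016 genes 1.41% were called higher in the paired fit, 0.171% were called lower, 10.5% were higher in each of the 5 animals and 8.28% were lower in each. In the unpaired fit 12 of the 16 had an unadjusted p under 0.05 and a higher signal, against 6.36% of all genes. The median paired difference of the list was 0.997, against -0.01 over all genes. Without animal 01, 9 of the 16 were called and the median was 1.01. Over all 7016 genes that fit called 61 higher and 6 lower, and list counts without animal 01 below stand against these. The median unpaired difference of the list was 0.92, and 0.71 without the 48 h array of animal 01. List calls were not counted without animal 02, 05 or 06, where only 10, 14 and 6 probe sets were called in all.

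TYROBP, the adaptor that passes on signals of activating receptors in myeloid and natural killer cells, had a log2 signal of 11.05, 9.80, 9.002, 8.97 and 8.94 in the 48 h arrays of animals 01, 02, 03, 05 and 06, against 7.39 to 9.53 at 24 h (median 8.07). The groups overlapped, and every animal was higher at 48 h than it was at 24 h, by 1.17 to 1.76. The paired difference was 1.49 ± 0.13 (SE, 5 animals; limma adjusted p = 0.00242), a 2.81-fold rise, and the unpaired one was 1.25 ± 0.41 (SE; adjusted p = 0.378). RNASE6, a secreted antimicrobial ribonuclease of leukocytes, was as even. It stood at 12.35, 11.74, 11.43, 10.57 and 10.99 at 48 h, against 9.10 to 10.85 at 24 h (median 10.37). It rose by 1.09 to 1.58 in the 5 animals, 1.40 ± 0.11 on average (SE; limma adjusted p = 0.0020).

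All 3 chains of C1q, the recognition part of the classical pathway, rose. C1QB had 10.43, 10.23, 9.98, 10.62 and 9.69 at 48 h, against 8.12 to 9.45 at 24 h (median 8.76), so that the lowest 48 h array was above the highest 24 h array. Its paired difference was 1.42 ± 0.22 (SE; limma adjusted p = 0.0277), 2.67-fold. C1QA had 12.38, 11.53, 11.98, 12.27 and 11.73 at 48 h, against 10.01 to 11.16 at 24 h, and C1QC had 9.77, 9.46, 9.19, 10.22 and 9.40, against 7.90 to 8.86. Neither set of arrays overlapped. Animal 05 rose the most in all 3 chains (2.27 to 2.49).

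CD14, the co-receptor for bacterial lipopolysaccharide, had 10.66, 10.21, 10.24, 9.98 and 10.02 at 48 h, against 8.61 to 9.75 at 24 h (median 9.32). The groups did not overlap, and the paired difference was 1.06 ± 0.13 (SE; limma adjusted p = 0.0126). MSR1, a scavenger receptor of macrophages, rose by 1.32 ± 0.15 (SE; limma adjusted p = 0.00865), with 1.02 to 1.45 in single animals. CSF1R, the receptor that keeps macrophages alive, was 0.91 ± 0.26 higher (SE) and was not called (adjusted p = 0.109). FOLR2, a folate receptor of tissue macrophages chosen after its values were seen, had 9.60, 8.61, 8.71, 8.71 and 8.22 at 48 h, against 6.89 to 8.02 at 24 h, and rose by 1.16 ± 0.21 (SE; limma adjusted p = 0.0377).

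**Figure D1:**
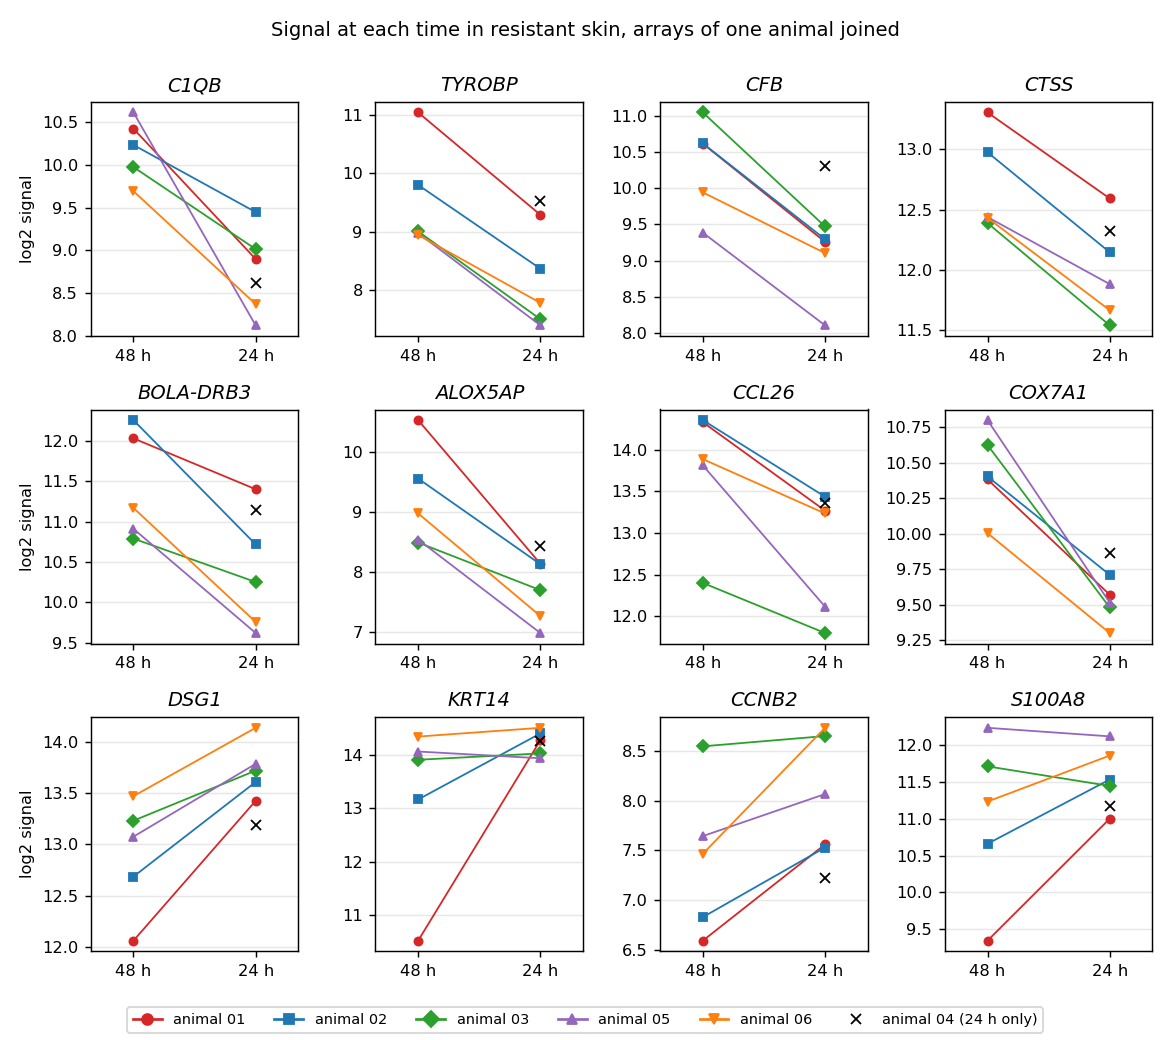
Log2 signal of 12 genes in resistant skin, with the 48 h arrays left of the 24 h arrays, lines joining the arrays of 1 animal and a cross for animal 04, which has a 24 h array here. All 5 lines run higher at 48 h for C1QB, TYROBP, CFB, CTSS, BOLA-DRB3, ALOX5AP, CCL26 and COX7A1 and lower for DSG1 and CCNB2. The lowest 48 h values of KRT14 and S100A8 are those of animal 01.

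Complement reached beyond C1q. All 16 measured genes of the list, which shares the C1q chains with the macrophage list, were higher at 48 h. Of these, 12 were higher in all 5 animals and 8 rose: the C1q chains, C1S, C4A, CFB, CFD and CFP. The median paired difference was 0.80, and without animal 01 it was 0.79 with 7 genes called. CFB, the protease of the alternative pathway, had 10.62, 10.62, 11.05, 9.39 and 9.94 at 48 h, against 8.11 to 10.31 at 24 h (median 9.28). The groups overlapped, since animals 05 and 06 at 48 h lay below the highest 24 h array, and the paired difference was 1.28 ± 0.13 (SE; limma adjusted p = 0.00659).

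CFP, or properdin, which stabilises the alternative convertase, rose by 0.93 ± 0.15, and CFD, which cleaves factor B, by 0.83 ± 0.15 (SE; limma adjusted p = 0.0277 and 0.0415). C1R, the partner of C1S in the C1 complex, was 0.61 ± 0.14 higher and was not called (adjusted p = 0.0647). C7, a part of the membrane attack complex that the list did not hold, had 10.85, 9.94, 9.39, 9.54 and 9.55 at 48 h, against 7.10 to 9.91 at 24 h. It rose by 1.37 ± 0.27 (SE; limma adjusted p = 0.0484), unevenly, with 0.42 in animal 03 and 2.45 in animal 06. The regulators CD46 (0.10 ± 0.10 SE), CD55 (0.33 ± 0.14 SE) and SERPING1 (0.28 ± 0.27 SE), chosen after their values were seen, were not called.

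Class II antigen presentation genes were higher in 8 of 10 measured members by the unpaired difference, 7 of them in all 5 animals, with a median paired difference of 0.81 (0.77 without animal 01). Of these 4 rose: BOLA-DRA, BOLA-DRB3, BOLA-DMA and CTSS, and without animal 01 there were 5. BOLA-DRB3, a beta chain of the bovine class II molecule, had 12.03, 12.26, 10.79, 10.91 and 11.17 at 48 h, against 9.62 to 11.40 at 24 h (median 10.48). The groups overlapped, and the paired difference was 1.08 ± 0.17 (SE; limma adjusted p = 0.0277).

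BOLA-DMA, which helps to load peptide on class II, rose by 1.15 ± 0.20, and BOLA-DRA, the alpha chain, by 0.89 ± 0.13 (SE; limma adjusted p = 0.0329 and 0.0275). CTSS, cathepsin S, which trims the invariant chain, rose by 0.74 ± 0.10 (SE; limma adjusted p = 0.0158). BOLA-DQA2 (-0.15 ± 1.42 SE unpaired, 0.46 ± 0.27 SE paired) and BOLA-DQB had wide spreads between animals. A probe set of BOLA-DQB1, chosen after its values were seen, was higher in all 5 animals and rose by 1.15 ± 0.20 (SE; limma adjusted p = 0.0353), with an unpaired SE of 1.59. These genes differ between haplotypes in cattle, and a probe set can read one haplotype better than another. All 11 measured class I genes were higher at 48 h by a median paired difference of 0.33, 7 of them in all 5 animals, and 0 were called in the paired fit, and 2 had an unadjusted p under 0.05 in the unpaired fit.

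**Figure D2:**
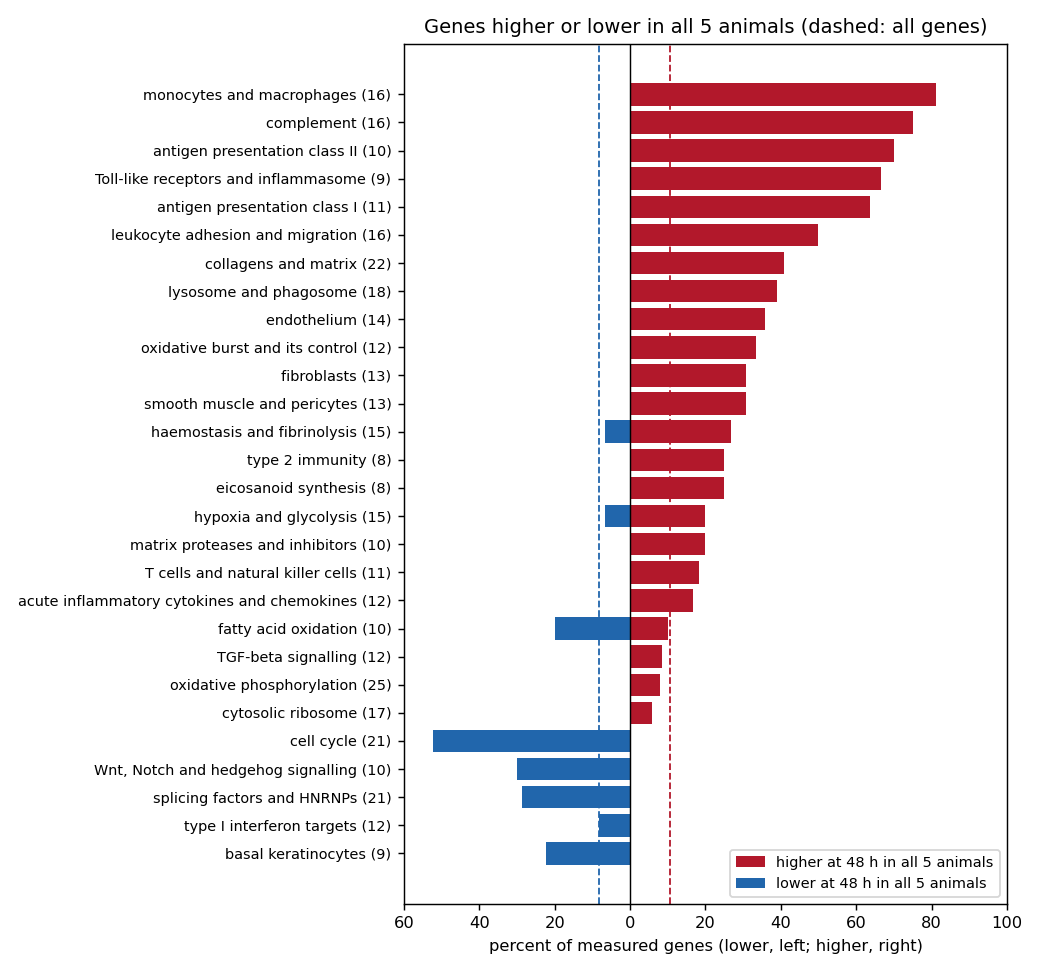
Percent of the measured genes of a list (number in brackets) that were higher (red, right) or lower (blue, left) at 48 h than at 24 h in each of the 5 animals, with all 7016 genes as dashed lines at 10.5% and 8.28%. Lists with at least 8 measured genes are drawn. Those in which no gene moved one way in all 5 animals are left out. The macrophage (13 of 16), complement (12 of 16) and class II (7 of 10) lists have the longest red bars, and the cell cycle list (11 of 21) the longest blue bar.

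Genes of leukotriene synthesis and of type 2 immunity were fewer. ALOX5AP, which hands arachidonic acid to 5-lipoxygenase, had 10.54, 9.56, 8.49, 8.54 and 8.98 at 48 h, against 6.98 to 8.44 at 24 h (median 7.91). The groups did not overlap, and it rose by 1.58 ± 0.21 (SE; limma adjusted p = 0.0162), 2.99-fold. It was the 1 gene called of the 8 in the eicosanoid list, all of which were higher at 48 h. LTA4H, the next enzyme toward leukotriene B4, was at 0.18 ± 0.13 (SE), and PTGIS, prostacyclin synthase, at 0.90 ± 0.26 (SE; adjusted p = 0.114).

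CCL26, an eosinophil chemoattractant also called eotaxin-3, had 14.33, 14.35, 12.40, 13.81 and 13.88 at 48 h, against 11.80 to 13.43 at 24 h, and rose by 0.99 ± 0.15 (SE; limma adjusted p = 0.0277). Animal 03 was the lowest at both times and lay 0.60 above its own 24 h value. IL33, an alarmin of epithelia, differed by 0.83 in animal 01 and -0.60 in animal 05 and was not called (0.05 ± 0.23 SE). Of the 8 measured genes of the type 2 list, 5 were higher and 3 lower by the unpaired difference, and 1 rose. The median unpaired difference was 0.26, and 0.18 without the 48 h array of animal 01.

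The 5 measured genes of mast cells, basophils and eosinophils were all higher at 48 h, 2 of them in all 5 animals. FCER1A, the IgE-binding chain of the high-affinity receptor, had 8.22, 8.09, 6.62, 6.61 and 6.41 at 48 h, against 5.16 to 7.67 at 24 h, and rose by 1.29 ± 0.24 (SE; limma adjusted p = 0.046). TPSB2, a mast cell tryptase, was 1.14 ± 0.28 higher (SE) and was not called (adjusted p = 0.0817), and KIT, the stem cell factor receptor, was at 0.19 ± 0.20 (SE). The median unpaired difference of the list was 0.99, and 0.63 without the 48 h array of animal 01. Animal 03 differed by 0.15 in the list mean, against 0.81 to 1.74 in the others, and no gene of the list was called without animal 01.

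Lymphocyte and neutrophil lists held no paired call. All 11 genes of T cells and natural killer cells were higher by a median paired difference of 0.44, 2 of them in all 5 animals, and 0 were called. CD3D, a chain of the T cell receptor complex, was at 0.78 ± 0.18 (SE; adjusted p = 0.0668) and NKG7, a granule protein of cytotoxic cells, at 1.004 ± 0.37 (SE; adjusted p = 0.19). Of 6 measured neutrophil genes 5 were lower and 0 were called. The median paired difference of the neutrophil list was -0.32, and -0.05 without animal 01. S100A8, a calcium-binding protein of neutrophils and stressed keratinocytes, had 9.35 to 12.23 at 48 h, against 11 to 12.12 at 24 h. NCF1, a subunit of the phagocyte NADPH oxidase, went the other way, at 1.11 ± 0.27 (SE; adjusted p = 0.0806).

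Single genes of leukocyte function rose in the same fit. CYBA, the membrane subunit of the NADPH oxidase, had 11.02, 10.82, 10.68, 11.07 and 10.72 at 48 h, against 9.65 to 10.38 at 24 h, with no overlap, and rose by 0.77 ± 0.15 (SE; limma adjusted p = 0.048). GPX1, a glutathione peroxidase, rose by 0.55 ± 0.10 (SE; limma adjusted p = 0.046), and these 2 were the calls among 12 genes of the oxidative burst and its control; without animal 01 there were 0. PSTPIP1, a cytoskeletal adaptor of haematopoietic cells, had 8.72, 8.75, 7.30, 6.90 and 7.72 at 48 h, against 3.93 to 7.40 at 24 h, and rose by 1.97 ± 0.30 (SE; limma adjusted p = 0.0274). Its 24 h median of 6.09 lay under the medians of the resistant 24 h arrays (7.17 to 7.36), where signal over background is small.

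CD48, a signalling receptor of leukocytes, rose by 1.31 ± 0.19 and LAT2, an adaptor of mast cell, B cell and myeloid signalling, by 1.21 ± 0.16 (SE; limma adjusted p = 0.0267 and 0.0197). GMFG (1.25 ± 0.14 SE), VAV1 (1.14 ± 0.18 SE), LCP2 (0.999 ± 0.20 SE), FES (1.02 ± 0.19 SE) and CD52 (1.02 ± 0.20 SE), all named after their values were seen, rose too, and the first 4 serve actin dynamics or signalling in blood cells. Of the 16 adhesion and migration genes 3 rose: ITGB2, the shared beta chain of leukocyte integrins (1.13 ± 0.20 SE), ICAM3 (1.04 ± 0.18 SE) and PECAM1 (0.69 ± 0.13 SE). None of the 3 was called without animal 01. The selectins SELE (0.30 ± 0.21 SE) and SELP (0.39 ± 0.29 SE), which slow leukocytes on the vessel wall, were not called.

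**Figure D3:**
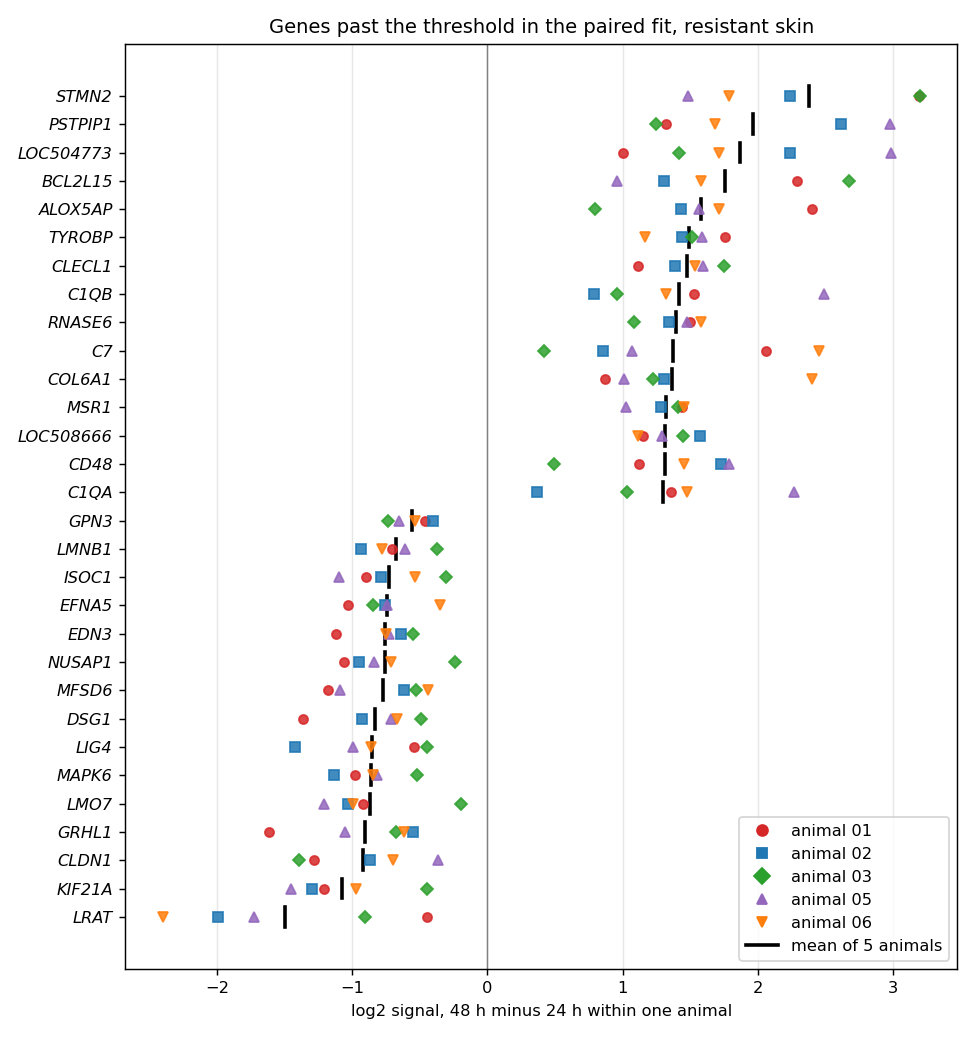
Within-animal differences, 48 h minus 24 h on the log2 scale, of the 15 named genes that rose and the 15 that fell by the most in the paired fit, with 1 marker for each of the 5 animals and a bar for their mean. Every marker lies on the same side of 0 as its bar; STMN2 has the largest mean rise (2.38) and LRAT the largest mean fall (-1.49).

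Vessel and connective tissue genes followed. All 14 measured endothelial genes were higher at 48 h, by a median unpaired difference of 0.32, and 2 rose (PECAM1 and CLDN5, a claudin of vessel walls). Without animal 01, 0 of the 14 were called, where 61 of all 7016 genes were called higher. A list this short can hold 0 calls at that share, so dependence on animal 01 was not shown. CLDN5 had 10.98, 11.04, 10.72, 10.99 and 10.85 at 48 h, against 9.62 to 10.58 at 24 h, with no overlap, and rose by 0.91 ± 0.16 (SE; limma adjusted p = 0.0354). Of 22 collagen and matrix genes, 9 were higher in all 5 animals and 2 rose, COL6A1 and FN1. COL6A1, a chain of the microfibrillar collagen VI, was read by 2 probe sets: the brighter had 14.52, 14.72, 13.38, 13.89 and 14.01 at 48 h, against 12.63 to 14.24 at 24 h, and rose by 0.79 ± 0.10 (SE; limma adjusted p = 0.0158), and the dimmer rose by 1.36 ± 0.24 (SE; limma adjusted p = 0.0374).

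FN1, fibronectin, rose by 0.85 ± 0.16 and TGFBI, a matrix protein induced by TGF-beta, by 0.76 ± 0.13 (SE; limma adjusted p = 0.0437 and 0.0298). The fibrillar collagens COL1A1 (0.50 ± 0.15 SE) and COL3A1 (0.21 ± 0.09 SE) were not called. LAMB2, a laminin chain of basement membranes, rose by 0.87 ± 0.14 (SE; limma adjusted p = 0.0279). ADM, a peptide that widens vessels, had 11.84, 11.80, 11.68, 10.45 and 11.33 at 48 h, against 9.92 to 11.11 at 24 h, and rose by 0.97 ± 0.17 (SE; limma adjusted p = 0.0355). F13A1, the clotting factor XIII subunit that tissue macrophages also make, was read by 2 probe sets. The brighter was 0.99 ± 0.21 higher (SE) and was not called (adjusted p = 0.0553), and the dimmer rose by 1.14 ± 0.23 (SE; limma adjusted p = 0.0484).

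A few rising genes belong to none of these groups. COX7A1, a heart and muscle form of a cytochrome oxidase subunit, had 10.38, 10.40, 10.62, 10.80 and 10.01 at 48 h, against 9.30 to 9.87 at 24 h. The groups did not overlap, it rose by 0.93 ± 0.13 (SE; limma adjusted p = 0.0234), and it shared the smallest unpaired adjusted p (0.153). The other 24 measured genes of oxidative phosphorylation were not called. STMN2, a microtubule regulator of neurons, rose by 2.38 ± 0.29 (SE; limma adjusted p = 0.0143), but its level differed so much between animals (5.14 to 11.15 at 48 h, 1.95 to 11.06 at 24 h) that the unpaired SE was 1.33. The epithelial antimicrobial gene EBD (1.09 ± 0.21 SE) and the lysozyme gene LYZ2 (1.16 ± 0.21 SE), chosen after their values were seen, rose as well.

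Smooth muscle, pericyte, appendage and melanocyte lists held no paired call. Smooth muscle and pericyte genes were higher in 12 of 13 by a median unpaired difference of 0.50, and 0.38 without the 48 h array of animal 01. TAGLN, a contractile protein, was at 0.59 ± 0.13 (SE; paired adjusted p = 0.0664). The median of the same list was 0.40 in susceptible skin. Sweat gland genes (6 of 6) and melanocyte genes (5 of 5) were lower, and sebaceous gland genes were lower in 5 of 7, with 0 called in each list. The median paired differences of these lists, in the same order, were -0.32, -0.35 and -0.41. Without animal 01 they were -0.18, -0.47 and -0.09. CD1B, a lipid-presenting molecule of dendritic cells, had 8.36, 7.97, 5.18, 5.31 and 6.80 at 48 h, against 2.02 to 8.57 at 24 h. CD1B was higher in all 5 animals at 2.80 ± 0.65 (SE) and was not called (adjusted p = 0.0712). Its values of 2.02, 5.18 and 5.31 lay under the array medians, where signal over background is small. Of the 3 measured genes of dendritic and Langerhans cells, 2 were higher and 1 was lower, with 0 called. The median unpaired difference of that list was 0.63, and 0.38 without the 48 h array of animal 01.

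Epidermal genes were lower, by more in animal 01 than in the other animals. All 6 genes of epidermal differentiation and all 7 of the keratinocyte wound response were lower at 48 h, as were 8 of 9 basal keratinocyte genes. The median unpaired differences were -0.49, -0.73 and -0.60, and -0.10, -0.30 and -0.21 without the 48 h array of animal 01. The median paired differences were -0.69, -0.82 and -0.61, and -0.37, -0.55 and -0.24 without animal 01. In epidermal differentiation 1 gene fell, and 2 were called without animal 01, whereas the other lists held 0 calls in either fit. The list mean of epidermal differentiation was lower in all 5 animals (-1.51, -0.54, -0.32, -0.26 and -0.49 in animals 01, 02, 03, 05 and 06). That of the wound response was too, at -1.90, -1.14, -0.31, -0.24 and -1.04. The mean log2 signal of the basal keratinocyte list was 9.23 in the 48 h array of animal 01 and 10.70 to 11.30 in the other 48 h arrays, against 10.999 to 11.42 at 24 h. In single animals it differed by -2.02 in animal 01, -0.52 in 02, 0.01 in 03, -0.03 in 05 and -0.12 in 06. The macrophage list mean differed by 1.13, 0.92, 0.63, 1.21 and 1.09 in the same animals, and the part of epidermal content in that difference was not tested. KRT14 was at -1.03 ± 0.47 (SE; adjusted p = 0.278), with -3.75 in animal 01 and -0.16 to 0.13 in animals 03, 05 and 06.

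DSG1, the desmosomal cadherin that holds the upper epidermis together, had 12.06, 12.69, 13.23, 13.07 and 13.47 at 48 h, against 13.19 to 14.14 at 24 h (median 13.66). It fell by 0.83 on the log2 scale (± 0.13 SE; limma adjusted p = 0.0277), and by 0.49 to 1.37 in single animals. CLDN1, the claudin of epidermal tight junctions, had 8.80, 8.59, 8.75, 9.49 and 9.45 at 48 h, against 9.46 to 10.15 at 24 h, and fell by 0.92 (± 0.16 SE; limma adjusted p = 0.0368). A second and brighter CLDN1 probe set was at -1.06 ± 0.22 (SE) and was not called (adjusted p = 0.0553). GRHL1, a transcription factor of the epidermis, fell by 0.90 (± 0.16 SE; limma adjusted p = 0.0378), and by 1.62 in animal 01. LRAT, which stores retinol as esters, had 6.64, 6.05, 7.65, 7.60 and 4.94 at 48 h, against 6.03 to 9.32 at 24 h, and fell by 1.49 (± 0.28 SE; limma adjusted p = 0.046).

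KIF21A, a kinesin motor, had 8.63, 8.83, 9.46, 8.99 and 9.64 at 48 h, against 9.42 to 10.61 at 24 h (median 10.01), and fell by 1.07 (± 0.16 SE; limma adjusted p = 0.0259). The overlap was of animals 03 and 06 at 48 h with the 24 h array of animal 04 (9.42), which has no 48 h array. The other 24 h arrays lay at 9.84 or above. A second probe set of KIF21A fell by 0.87 (± 0.16 SE; limma adjusted p = 0.0393). EDN3, a ligand that melanocytes respond to, fell by 0.76 (± 0.14 SE; limma adjusted p = 0.0423). TYRP1, a melanosome enzyme, had 9.56, 4.20, 7.001, 11.84 and 1.09 at 48 h, against 4.64 to 12.08 at 24 h, and was lower in each animal without a call (-1.56 ± 0.40 SE, adjusted p = 0.085). The probe set with the smallest adjusted p of all, which has no gene symbol, had 5.54, 6.29, 7.29, 6.51 and 6.68 at 48 h, against 7.15 to 9.31 at 24 h. It fell by 2.59 (± 0.19 SE; limma adjusted p = 0.0019).

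**Figure D4:**
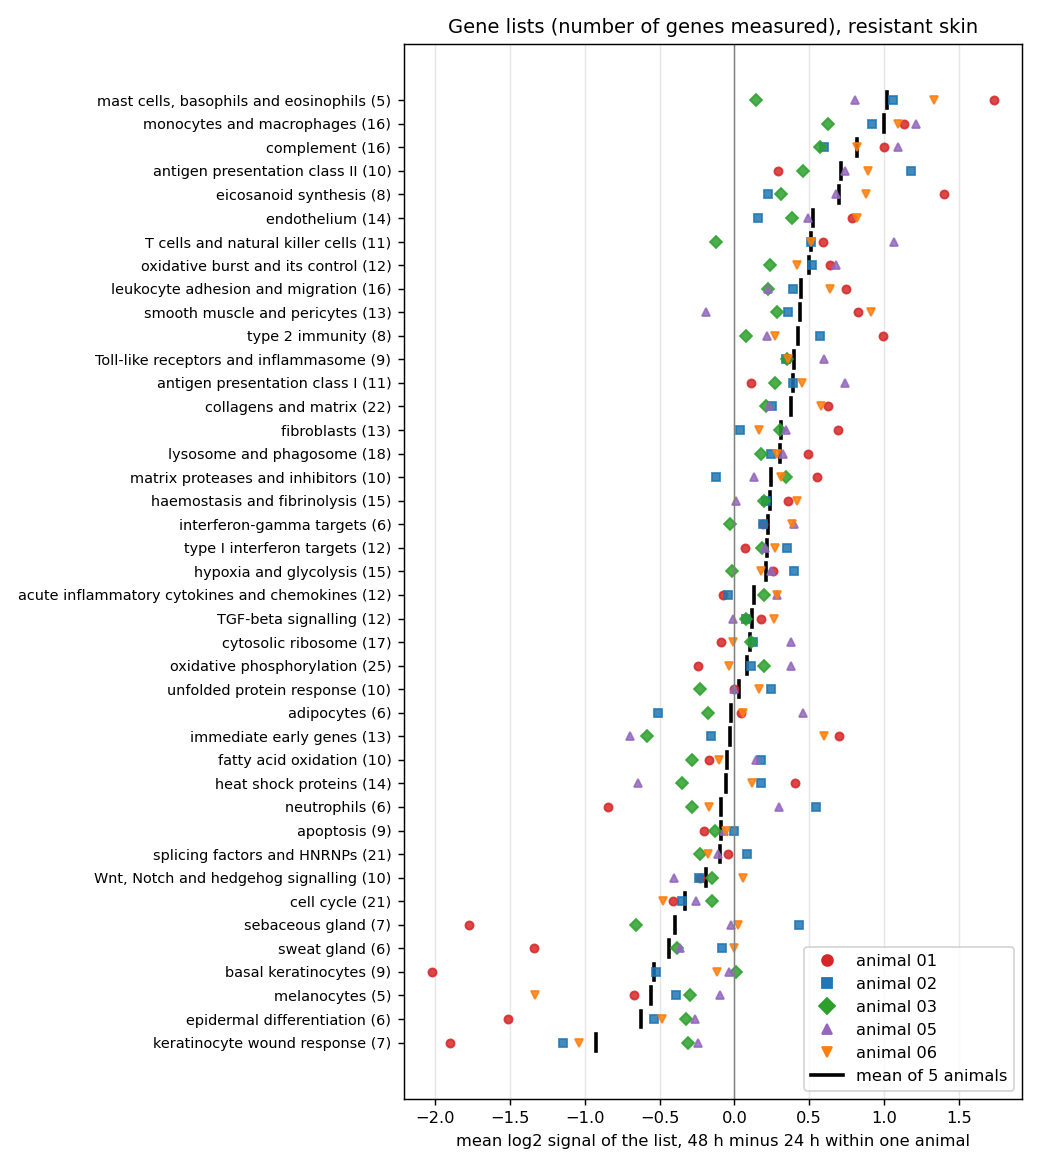
Within-animal differences, 48 h minus 24 h, of the mean log2 signal of each gene list with at least 5 measured genes, with 1 marker for each of the 5 animals and a bar for their mean. The macrophage list lies between 0.63 and 1.21 in all animals, whereas the basal keratinocyte list is at -2.02 in animal 01 and between -0.52 and 0.01 in the others.

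Genes with the smallest p in the unpaired fit were partly others, and none was a call there (adjusted p from 0.153 to 0.334). POP7, a subunit of the RNA-processing enzymes RNase P and RNase MRP, had 10.35, 10.18, 10.79, 10.58 and 10.32 at 48 h, against 9.83 to 10.05 at 24 h, with no overlap (0.52 ± 0.13 SE unpaired, paired adjusted p = 0.0687). ANP32E, a histone chaperone, had 8.22, 8.68, 8.59, 8.42 and 8.70 at 48 h, against 8.73 to 9.36 at 24 h (-0.65 ± 0.13 SE unpaired, paired adjusted p = 0.0508). Its groups did not overlap either. COG3, a tether of Golgi vesicles, was also lower in every 48 h array (-0.42 ± 0.09 SE). MFSD6 and GPN3 fell in the paired fit, and all their 48 h arrays were below all 24 h arrays.

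Cell division genes were lower without a call in the list. Of 21 cell cycle genes 20 were lower at 48 h, 11 of them in all 5 animals, by a median unpaired difference of -0.23 (-0.16 without the 48 h array of animal 01). In the unpaired fit 1 of the 21 was lower with an unadjusted p under 0.05, against 4.55% of all genes. CCNB2, a mitotic cyclin, had 6.59, 6.83, 8.55, 7.64 and 7.47 at 48 h, against 7.22 to 8.73 at 24 h, at -0.69 ± 0.19 (SE; adjusted p = 0.105). CDK1, its kinase, was at -0.57 ± 0.14 (SE; adjusted p = 0.0769). Outside the list, NUSAP1, a protein of the mitotic spindle, fell by 0.76 (± 0.14 SE; limma adjusted p = 0.046), LMNB1, lamin B1 of the nuclear envelope, by 0.68 (± 0.13 SE; limma adjusted p = 0.0487) and LIG4, a ligase of DNA break repair, by 0.86 (± 0.17 SE; limma adjusted p = 0.0487).

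Several responses had small median differences. Type I interferon targets had a median unpaired difference of 0.14 over 12 genes, interferon-gamma targets 0.15 over 6 and acute cytokines and chemokines 0.13 over 12, with 0 called in the paired fit. Their median paired differences were 0.24, 0.17 and 0.18, against -0.01 over all genes. The mean of the type I interferon list was higher at 48 h in all 5 animals. ISG15 was at 0.31 ± 0.18 (SE) and CCL2 at 0.35 ± 0.32 (SE) in the paired fit. Heat shock (0.01 over 14) and immediate early genes (-0.01 over 13) were centred near 0, and FOS went in both directions (9.98 to 12.61 at 48 h, 9.67 to 12.21 at 24 h). Cytosolic ribosomal protein genes were higher in 61 of 63, by a median of 0.13, which was 0.00 under quantile normalization.

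The rise was set beside the other arrays of the series. The mean of the macrophage list in resistant skin was 8.70 ± 0.49 before infestation, 8.60 ± 0.49 at 24 h and 9.51 ± 0.48 at 48 h (SD over 5, 6 and 5 arrays). In susceptible skin it was 8.71 ± 0.24, 8.52 ± 0.27 and 8.35 ± 0.72 at the same times (SD over 3, 6 and 5 arrays). In the 4 susceptible animals with both times it differed by -0.84, -1.24, 0.57 and 0.66 between 48 h and 24 h. The complement mean was 10.42, 10.28 and 10.997 in resistant skin and 10.43, 10.37 and 10.14 in susceptible skin. In susceptible skin limma called 0 probe sets between 48 h and 24 h, unpaired (259 at an unadjusted p under 0.05) or paired on 4 animals (209).

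The difference of the responses, resistant minus susceptible, was called in 0 of 13809 probe sets (0%), and the smallest adjusted p was 0.921; before adjustment 724 lay under 0.05. With the animal as a fixed term on the 24 h and 48 h arrays it was again 0, the smallest adjusted p was 0.134, and 1201 lay under 0.05 before adjustment. For TYROBP the unpaired difference was 1.43 ± 0.58 (SE; limma adjusted p = 0.921), from 1.25 in resistant and -0.18 in susceptible skin. For CFB it was 1.23 ± 0.44 and for KIF21A -0.98 ± 0.29 (SE; limma adjusted p = 0.921 for both). A time course particular to resistant skin was therefore not shown by a test.

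**Figure D5:**
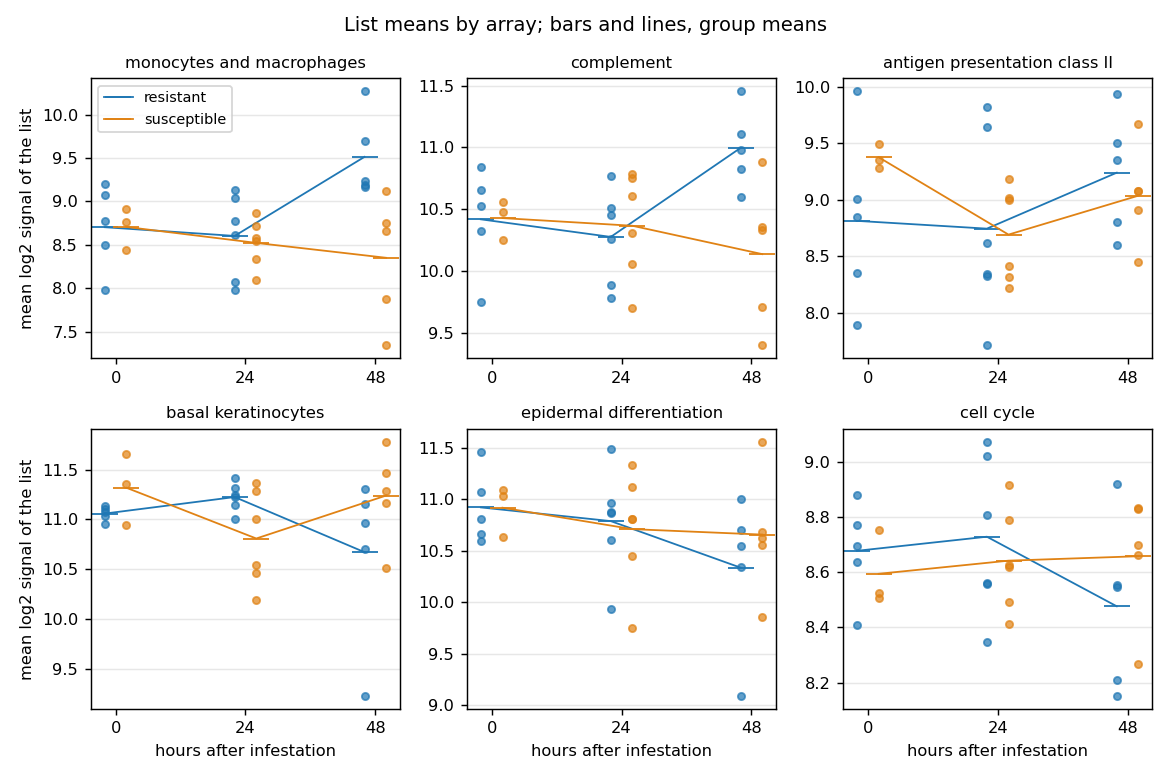
Mean log2 signal of 6 gene lists in each array at 0, 24 and 48 h after infestation, with resistant skin left of susceptible skin at each time and bars and lines at the group means. The macrophage and complement means are highest in resistant skin at 48 h (9.51 and 10.997), and the lowest resistant point at 48 h in the 2 keratinocyte panels is animal 01.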

How the data were processed

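The log2 signals were computed by the authors with MAS5 before they were deposited (named in the submitters' processing notes); the version and genome build are not given in the sources used here, so no coordinates are printed. All arrays share a trimmed mean (2% off each end) of 500 once the log is undone. RNA was extracted with Trizol and RNeasy columns and amplified from 50 ng, per the labels' protocols. From the 24128 probe sets, 112 controls were left out, and 13809 were kept that lay at or above their array's median in at least 3 arrays. Symbols came from the platform annotation (13292 probe sets with 1 symbol, 86 with several, 10638 with none). In lists, families and shares of all genes, each gene is represented by its brightest kept probe set. Genes named as called could be called through any kept probe set.

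limma 3.58.1 in R 4.3.3 (lmFit, eBayes with intensity trend, two-sided tests, Benjamini-Hochberg over all kept probe sets, threshold 0.05) was fitted to 6 group means on 30 arrays, and, paired, with the animal as a fixed term on 10 arrays. The pairing comes from the animal numbers in the labels, and the design text states repeated biopsies of each animal. Deviations of same-numbered arrays from their group means correlated at 0.25, 0.30, 0.42, 0.58 and 0.63 (the 48 h array of animal 01, at 0.25, correlated at 0.39 with the 24 h array of animal 04), and over the 200 probe sets that best tell susceptible animals apart each 48 h array was closest to the 24 h array of its own number. The fits were tested on simulated data with animal effects. With none of 13809 probe sets changed, 285 had an unadjusted p under 0.05 in the unpaired fit and 654 in the paired fit, and 0 were called in either. With 200 changed, the unpaired fit recovered 64 of 100 changed by 1 log2 unit with 1 false call. The paired fit recovered 89 of 100 with 15 false calls. Python 3.11.15 and matplotlib 3.10.9 made the plots.

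Genes and the 47 lists and 32 families were chosen with earlier results of these data known, so they are descriptions and not independent support. The genes named are up to 12 a direction with the smallest p (unpaired), up to 15 a direction with the largest called difference (paired), and per list the first 4 measured and the 2 of smallest p (2 per family); others are marked as chosen after their values were seen, or named as members of a count.

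Alternatives were quantile normalization, median centring, an offset of 16, no filter, a filter over the 11 arrays, no trend, array weights, only the arrays compared, other animal blocks and leaving out each array. Applying these to the paired fit, the block over both phenotypes and the list counts without animal 01 were chosen after seeing the data. The number of arrays limits the precision.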

Additional observations from a re-analysis of the deposited data

Results flagged for a closer look

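Of 194 values tested for a sample far from the rest of its group, 10 had 1, where chance gives about 1 in 20. Among list means, the 48 h array of animal 01 was low for basal keratinocytes (9.23, others 10.70 to 11.30), the keratinocyte wound response (8.96, others 10.48 to 11.07) and Schwann cells and nerve (8.97, others 9.29 to 9.36). The 48 h array of animal 05 was low for smooth muscle and pericytes (9.26, others 10.47 to 10.84). Among genes at 48 h, LOC504773 was low in animal 06 (10.84, others 12.81 to 13.33) and MFSD6 was low in animal 01 (8.57, others 9.07 to 9.22). At 24 h, CSRP2 (9.91, others 9.20 to 9.45) and MAPK6 (10.24, others 8.90 to 9.35) were high in animal 05, ANP32E was low in animal 01 (8.73, others 9.14 to 9.36) and PIGW was low in animal 02 (9.35, others 9.79 to 9.97).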

How the results depend on the processing

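The unpaired count of 0 became 168 with the replicate block of 5 animals on 10 arrays and was 0 to 1 when single arrays were left out (1 without the 24 h array of animal 01). It stayed 0 under the other alternatives, among them the animal as a fixed or random block on all 30 arrays, where XIST goes against the 0 h numbers of resistant animals 03 and 05. The paired count of 168 became 71 without the filter, 60 without the intensity trend, 456 with array weights, 0 with the 24 h and 48 h arrays of both phenotypes in the block, 1 with no replicate block on the same 10 arrays, and 6 to 212 when single animals were left out. Quantile normalization, median centring, the offset and the 11-array filter gave 142, 161, 186 and 180, and all 168 probe sets kept their direction in each of these paired fits. The 2437 probe sets that moved one way in all 5 animals became 2437 to 3795 with single arrays left out, because fewer animals then had to agree. The difference of the responses between phenotypes was called in 0 probe sets under each alternative. None of the 50 genes named by the rules on p and on paired differences changed direction under any alternative run. The 168 probe sets and the 50 genes were chosen on these same arrays, so their kept directions are no independent support. The median of the ribosome list went to -0.04 under quantile normalization, and that of the nerve list to 0.30 without the 48 h array of animal 01; the cause was not tested. Probe sets under the array median carry little signal over background, which limits STMN2, TYRP1, PSTPIP1 and others with values of 1 to 6.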
